A study of Homo sapiens with 24 samples.

Results

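The response of H3K27ac to added vascular endothelial growth factor (VEGF) was examined in Eahy926, a human endothelial hybrid line made by fusing umbilical vein endothelial cells with the lung carcinoma line A549. The members were chosen from the labels. They are the 2 peak lists of chromatin from cells given VEGF for 24 h and the 2 lists of control cells whose libraries were made on the same day, together 4 of the 24 libraries of the series (20 from immunoprecipitated chromatin, 4 from input). Control cells grew in DMEM with fetal bovine serum and penicillin/streptomycin, which lacks VEGF. Treated cells had the same medium with VEGF at 1x of the LifeLine endothelial medium kit, and no mass concentration is given in the sources used here. All cells were of the parental genotype. The other groups used beside them were Eahy926 controls of library day 0, Eahy926 given 1 of the inflammatory cytokines IL1b (interleukin 1 beta) and TNFa (tumor necrosis factor) at 10 ng/ml for 24 h on day 1, and TeloHAEC, telomerase-immortalized aortic endothelial cells whose medium holds VEGF, as day 0 and day 1 controls and after 24 h without VEGF. TeloHAEC given IL1b or TNFa in the same way entered the fit and the merged regions. Each group had 2 biological replicates by the labels. These do not say whether replicates were separate cultures, so p values measure the spread between these libraries. A single hybrid line limits what the comparison stands for.

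H3K27ac marks active promoters and enhancers. VEGF-A acts on endothelial cells mainly through KDR (VEGFR2), FLT1 (VEGFR1) binds the ligand tightly and signals weakly, and the neuropilins NRP1 and NRP2 are co-receptors. Activated KDR signals through phospholipase C gamma, protein kinase C and calcineurin with NFAT, and its known targets include RCAN1, a feedback inhibitor of calcineurin, and the immediate early factors EGR3 and NR4A1.

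Sequences upstream of 4 gene starts are shown, since the results below refer to these genes. KDR and FLT1 are the signalling receptors, and in Eahy926 neither start lay under a peak with or without VEGF. A peak at the start of CFAP36 was lost with VEGF, and a region beginning 827 bp inside MAT2B was gained. Of the VEGF libraries only 1.1 reached within 1 kb of the MAT2B start, and a control holds a weaker deposited peak in the region. Each is the 250 bases before the first start of the gene in RefSeq (GRCh38.p14, chr4:55125596-55125845 and chr13:28495129-28495378 on the minus strand, chr2:55519468-55519717 and chr5:163502814-163503063 on the plus strand), 5′ to 3′ along the gene. Capitals mark GGGCGG (the GC box) and CCGGAA (an ETS core) on either strand.
KDR: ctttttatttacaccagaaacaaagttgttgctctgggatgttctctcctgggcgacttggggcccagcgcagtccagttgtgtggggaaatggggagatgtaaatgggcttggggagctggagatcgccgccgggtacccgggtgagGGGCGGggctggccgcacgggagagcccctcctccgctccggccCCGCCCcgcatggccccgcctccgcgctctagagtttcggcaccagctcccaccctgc
FLT1: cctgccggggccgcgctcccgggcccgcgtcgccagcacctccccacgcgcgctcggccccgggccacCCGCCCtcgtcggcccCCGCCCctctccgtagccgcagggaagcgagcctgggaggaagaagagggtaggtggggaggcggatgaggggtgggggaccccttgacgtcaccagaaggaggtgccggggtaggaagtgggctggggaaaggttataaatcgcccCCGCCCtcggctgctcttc
CFAP36: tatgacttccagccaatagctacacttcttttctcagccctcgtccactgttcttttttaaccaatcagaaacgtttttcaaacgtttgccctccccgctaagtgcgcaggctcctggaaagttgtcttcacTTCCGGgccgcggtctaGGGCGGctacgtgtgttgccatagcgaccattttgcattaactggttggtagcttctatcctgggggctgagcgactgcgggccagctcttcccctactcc
MAT2B: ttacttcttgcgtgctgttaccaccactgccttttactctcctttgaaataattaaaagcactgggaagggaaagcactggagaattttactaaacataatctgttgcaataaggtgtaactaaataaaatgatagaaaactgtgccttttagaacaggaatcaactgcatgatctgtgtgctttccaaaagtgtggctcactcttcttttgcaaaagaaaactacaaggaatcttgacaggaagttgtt
The GC box was found 2 times in the KDR stretch, 3 times in FLT1, 1 time in CFAP36 and 0 times in MAT2B, and 42.6% of 35116 RefSeq promoters of that length hold it. CCGGAA was found in CFAP36 alone of these 4, and 14.5% of all promoters hold it. The AP-1 motif TGANTCA was in none of the 4 and in 6.57% of all. A match is a description of letters. The stretches differ in CpG content, with 25 CG pairs in FLT1, 17 in KDR, 13 in CFAP36 and 1 in MAT2B.

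Libraries are compared by where peaks were called, so the unit throughout is the length under autosomal peaks with -log10 q of 2 or more, scaled so that every library has the same total. Positions from here on are of hg19. VEGF 1.1 and 1.2 held 38007 and 41603 such peaks over 20.5 and 24 Mb, and controls 1.1 and 1.2 held 39617 and 37789 over 19.8 and 22.6 Mb. Their depths were 6233402, 6957252, 7122108 and 6275124 tags, while the day 0 controls had 18742086 and 21135399 tags and covered 36 and 33 Mb. The Jaccard index (shared bp over bp covered by either library) was 0.585 between the VEGF libraries, 0.571 between the controls and 0.575 to 0.595 over the 4 pairs of 1 VEGF and 1 control library. A VEGF library was thus as similar to a control library as libraries of 1 group were to each other.

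Across the genome few 10-kb bins differed. Of 36576 bins tested with limma, 108 (0.295%) passed an adjusted p of 0.05, 68 higher (0.186%) and 40 lower (0.109%) with VEGF, and 1578 had an unadjusted p under 0.05. Bins of the 4 lists of VEGF genes described next numbered 231, of which 2 were called (0.866%) and 8 had an unadjusted p under 0.05 (3.46%, against 4.31% of all bins). The 2 called bins lie in NRP1, where coverage rose, and in NR4A1, where it fell.

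Receptors and ligands came first. Each gene was given a window of its hg19 span and 10 kb on each side, which can also hold peaks of neighbouring genes. The KDR window held 2396 and 2235 bp in the controls and 2211 and 2169 bp with VEGF. Its VEGF libraries lay just below its controls, by 0.07 on the log2 scale. These peaks lie at the far end of the gene. Within 1 kb of the KDR start all 10 Eahy926 ChIP libraries were at 0, while the deeper TeloHAEC day 0 controls held 883 and 929 unscaled bp there. On day 1 TeloHAEC held 561 and 0 bp in controls, 402 and 0 without VEGF, 0 and 296 with TNFa and 0 in both IL1b libraries, so most TeloHAEC libraries of that day also had no peak. The FLT1 window held 4803 and 4855 bp in the controls and 5459.7 and 4469 bp with VEGF, and the groups overlapped. FLT4, the receptor of VEGF-C in lymphatic cells, was at 0 in all 20 ChIP libraries. No bin of KDR or FLT1 was called.

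NRP1, the co-receptor, had 13 tested bins. Its window held 9492 and 8602 bp in the controls and 11011 and 9811 bp with VEGF, a log2 difference of 0.20. VEGF lay above control in both libraries. A single bin, chr10:33570001-33580000 inside the gene, held 11.1 and 0 bp in the controls and 687 and 404 bp with VEGF, so that coverage there rose from 5.55 ± 7.85 bp (SD, n = 2) to 546 ± 199.6 bp (SD, n = 2). The log2 difference was 1.83 ± 0.28 (SE), with an adjusted p of 0.015 in limma. Day 0 controls held 301 and 498 bp in the same bin, between the day 1 groups in 1 library and within the VEGF values in the other. TNFa libraries held 431 and 654 bp and both IL1b libraries were at 0. TeloHAEC held 833 and 1302 bp with VEGF and 891 and 1325 bp without it, which overlap (log2 difference -0.05). The call is lost without control 1.2 (adjusted p = 0.056) and without VEGF 1.1 (0.088). It is kept in 6 of 14 other settings, and lost with equal numbers of top peaks (log2 difference 0.73), -log10 q of 5 or more (0.78), equal covered length (0.69), controls of both days (1.07), quantile scaling (adjusted p = 0.37), no scaling (0.2), a pseudocount of 1000 bp (0.3) and the compared groups fitted alone (0.43). The other 12 tested NRP1 bins were not called, and the bin holding its start had 909 and 1299 bp in the controls and 1540.2 and 818 bp with VEGF.

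**Figure D1:**
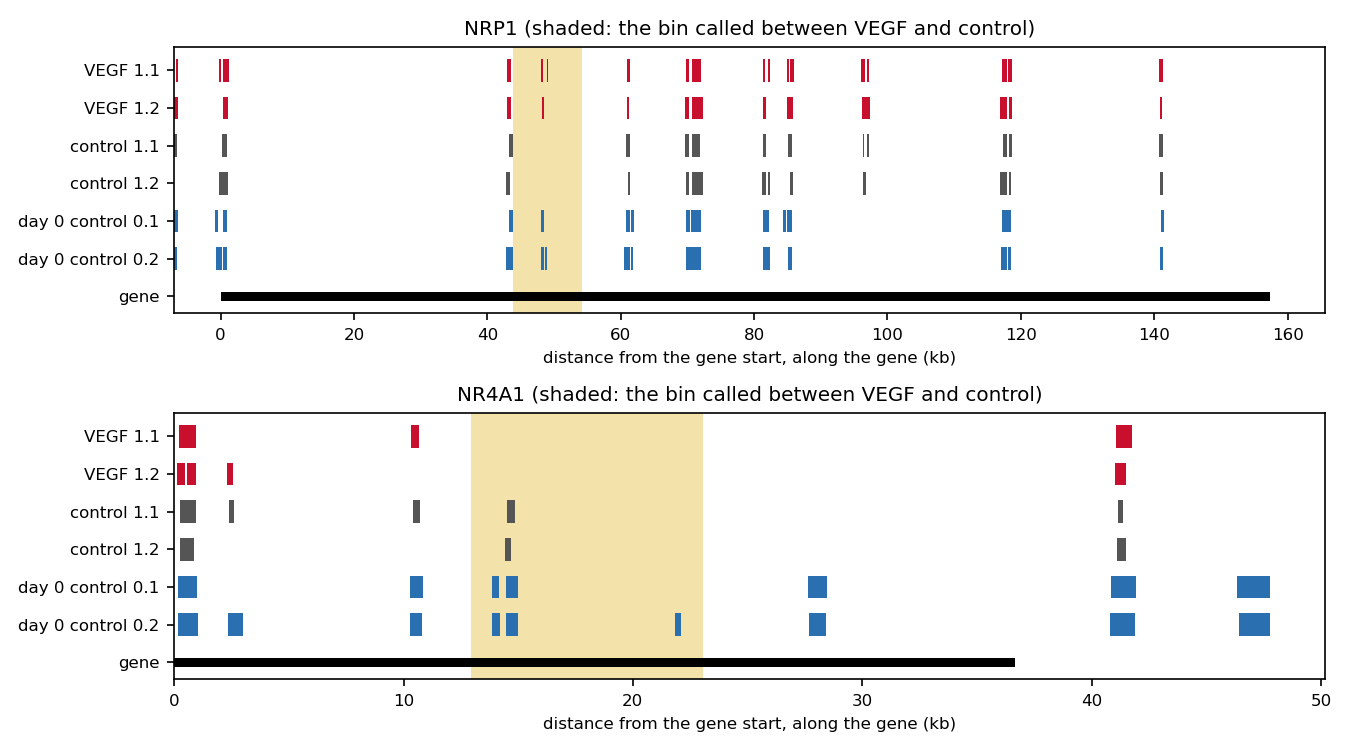
Peaks of the 4 compared libraries and the day 0 controls along NRP1 and NR4A1, drawn by distance from the gene start in kb, with each bar 1 peak with -log10 q of 2 or more and the gene as a black bar. In the shaded NRP1 bin both VEGF libraries and both day 0 controls have a peak away from its edge and the day 1 controls do not, and in the shaded NR4A1 bin both day 1 controls have a peak and the VEGF libraries do not.

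The other members of the group were not called. NRP2 held 4089 and 4152 bp in the controls and 4292 and 3942 bp with VEGF, and these overlapped. Among the ligands, the VEGFA window was at 0 in all 4 libraries, while the day 0 controls held 619 and 1229 bp. VEGFB held 2677 and 3047 bp in the controls and 3669.6 and 3323 bp with VEGF, with VEGF above control. VEGFC, the lymphatic ligand, varied more within the controls than between the groups, at 664 and 2638 bp in the controls and 3010.2 and 1906 bp with VEGF. PGF, which binds FLT1, held 5882 and 4274 bp in the controls and 4794 and 4334 bp with VEGF. Of the 9 windows in this list, 2 had both VEGF libraries above both controls, 1 had both below, 4 overlapped and 2 were at 0 in all 4 libraries, with a median log2 difference of 0. VEGFD lies on X and was not analysed here. For comparison, the groups did not overlap in 25.6% of 22098 50-kb bins tested across the autosomes, whose median log2 difference was 0.

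**Figure D2:**
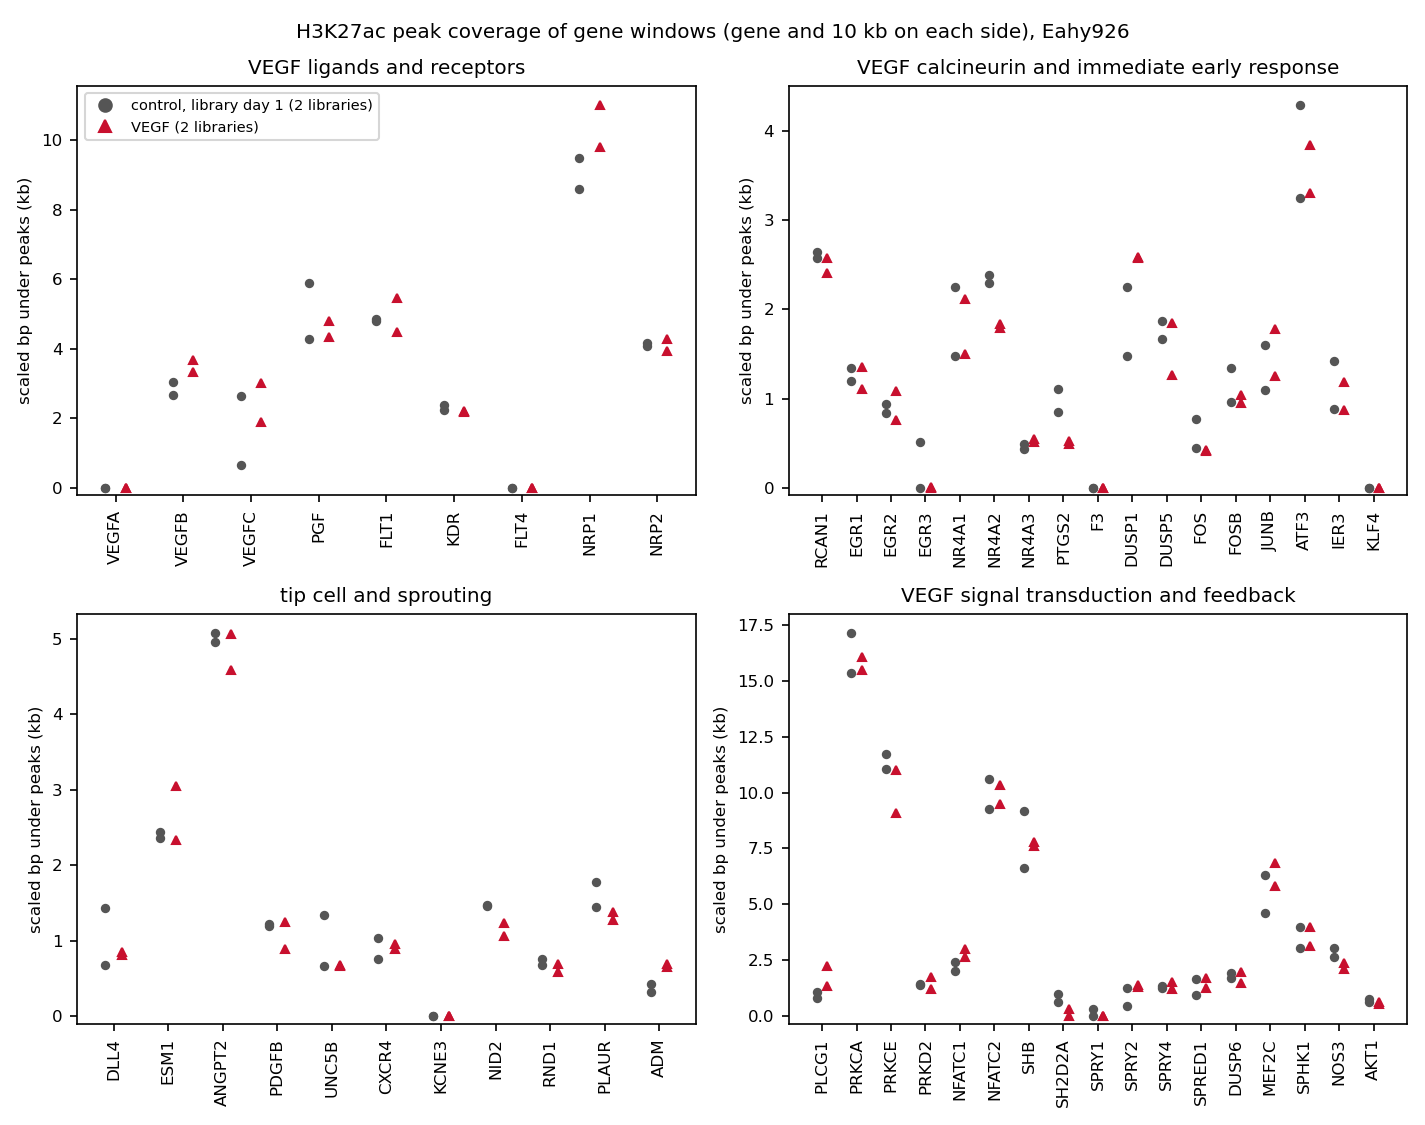
Scaled length under H3K27ac peaks in kb (y axis) in the window of each gene of 4 lists (x axis), with controls of day 1 as grey circles and VEGF libraries as red triangles, 2 libraries each. Most pairs of circles and triangles interleave, and windows such as VEGFA, FLT4 and KLF4 are at 0 in all 4 libraries.

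The immediate early and calcineurin targets showed no common direction. Of the 17 windows in this list, 2 had both VEGF libraries above both controls, 4 had both below, 9 overlapped and 2 were at 0 in all 4 libraries, with a median log2 difference of -0.06. RCAN1 held 2643 and 2574 bp in the controls and 2411 and 2573 bp with VEGF, a difference of -0.06 on the log2 scale, with both VEGF libraries below both controls by a narrow margin. The growth response gene EGR1 held 1347 and 1202 bp in the controls and 1351 and 1112 bp with VEGF, which overlapped. EGR3 had 1 peak in control 1.1 (516 bp), and was at 0 and 13.2 bp with VEGF. DUSP1, a MAP kinase phosphatase, held 2248 and 1473 bp in the controls and 2585 and 2576 bp with VEGF, and both VEGF libraries lay above both controls. PTGS2, which encodes cyclooxygenase 2, lay the other way, at 1103 and 851 bp in the controls and 519 and 494 bp with VEGF (log2 difference -0.73). FOS held 769 and 443 bp in the controls and 428 and 412 bp with VEGF, and NR4A2 held 2294 and 2386 bp in the controls and 1834 and 1796 bp with VEGF, and in both the VEGF libraries also lay below the controls. No bin of the windows named so far in this list passed the adjusted threshold. F3 and KLF4 were at 0 in the 4 libraries.

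NR4A1, an orphan nuclear receptor induced by VEGF in endothelial cells, held the other called bin of the VEGF lists. In chr12:52430001-52440000, inside the gene, the controls held 444 and 317 bp and both VEGF libraries were at 0. Coverage fell by 1.53 ± 0.18 (SE) on the log2(bp + 200) scale, with an adjusted p of 0.0023 in limma. Both Eahy926 day 0 controls were covered there, at 563 and 814 bp, while all 4 cytokine libraries of Eahy926 and all 4 TeloHAEC libraries of the VEGF comparison were at 0. The TeloHAEC day 0 controls, whose medium holds VEGF, held 737 and 858 bp. TeloHAEC libraries with TNFa held 368 and 401 bp, and those with IL1b were at 0. The call was kept without any 1 of the 4 compared libraries, and was lost with the compared groups fitted alone (adjusted p = 0.27), with a pseudocount of 1000 bp (0.16) and with -log10 q of 5 or more, where no compared library had a peak. With equal numbers of peaks or equal covered length it did not pass the filter on low coverage. The whole NR4A1 window held 2248 and 1480.3 bp in the controls and 2114 and 1499 bp with VEGF, which overlapped, and the neighbouring tested bins did not pass the test.

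Tip cell and sprouting genes, which mark the leading cell of a growing vessel, were little different. Of the 11 windows in this list, 1 had both VEGF libraries above both controls, 2 had both below, 7 overlapped and 1 was at 0 in all 4 libraries, with a median log2 difference of -0.13. Of 30 tested bins none was called. ESM1, which encodes endocan, held 2365 and 2436 bp in the controls and 2333 and 3045 bp with VEGF, and ANGPT2, the TIE2 ligand stored in endothelial granules, held 5075 and 4966 bp in the controls and 5063 and 4584 bp with VEGF. Both overlapped. ADM, which encodes adrenomedullin, held 419 and 315 bp in the controls and 686 and 651 bp with VEGF, with VEGF above control (log2 difference 0.62), and in TeloHAEC the libraries with VEGF also lay above those without. NID2 (1456 and 1477 bp in the controls and 1232 and 1061 bp with VEGF) and PLAUR, the urokinase receptor (1782 and 1440.3 bp in the controls and 1269 and 1378 bp with VEGF), lay below control. DLL4, the Notch ligand of tip cells, held 672 and 1434 bp in the controls and 803 and 852 bp with VEGF. KCNE3 was at 0, and APLN lies on X.

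Genes of signal transduction and feedback spread around 0. Of the 17 windows in this list, 3 had both VEGF libraries above both controls, 3 had both below, 11 overlapped and 0 were at 0 in all 4 libraries, with a median log2 difference of 0. PLCG1, which encodes phospholipase C gamma 1, held 824 and 1072 bp in the controls and 1353 and 2224 bp with VEGF (log2 difference 0.77), and its smallest adjusted p over 3 bins was 0.82. NFATC1, the calcineurin-activated factor, held 2409.6 and 2022 bp in the controls and 3013 and 2620.1 bp with VEGF. The feedback inhibitor SPRY2 held 1249 and 450.2 bp in the controls and 1382 and 1313 bp with VEGF, and control 1.2 was lower than the other 3. SH2D2A, an adaptor that binds KDR, held 997 and 622 bp in the controls and 0 and 317 bp with VEGF, with 1 VEGF library at 0. NOS3, endothelial nitric oxide synthase, held 3049 and 2634 bp in the controls and 2098 and 2355 bp with VEGF, below control with VEGF, while in TeloHAEC libraries with VEGF lay above those without. The groups overlapped for DUSP6, SPRY4, SPRED1, AKT1, PRKCA and NFATC2. None of the 109 bins of these windows was called.

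Most endothelial marker windows held a peak in at least 1 of the compared libraries. Of 23 windows of endothelial markers, 21 held such peaks, and EMCN and CLDN5 were at 0 in all 4 libraries. In 9 of the 23 a peak lay within 1 kb of the gene start in all 4. CDH5 (VE-cadherin) held 6062 and 5826 bp in the controls and 6632 and 6592 bp with VEGF, and ENG (endoglin) 6660.1 and 6946 bp in the controls and 5237 and 5431 bp with VEGF. CDH5 lay above and ENG below control with VEGF, and neither had a called bin. The 4 windows with the largest difference in this list were SOX17 (0.67), GATA2 (-0.49), CLEC14A (0.47) and SOX18 (0.35), and each overlapped. Of 15 lung epithelial markers, which the A549 parent could bring, NKX2-1, FOXA2, GRHL2 and ELF3 were at 0 in all 4 libraries and KRT8 held 5916 and 5422 bp in the controls and 6285 and 5536 bp with VEGF. The largest differences there were EPCAM (-0.65), SFTPB (-0.46), CLDN4 (0.35) and KRT19 (0.24). No bin of either list was called.

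Notch, matrix and inflammatory genes had no called bin either. HEY1, a Notch target, held 294 and 454 bp in the controls and 1271 and 897 bp with VEGF (log2 difference 1.16), and the VEGF libraries lay above both controls. NOTCH3, NRARP and NOTCH2 were the next largest in that list, at -0.68, -0.68 and -0.42, and in the first pair only control 1.2 of the 4 libraries was covered. MMP1, a collagenase, held 505 and 369 bp in the controls and 0 and 0 bp with VEGF (log2 difference -1.66, smallest adjusted p = 0.69). ADAMTS1 (-0.72), MMP10 (-0.71) and COL4A1 (0.42) followed and overlapped. Among 18 NF-kB targets, the chemokine CXCL1 held 0 and 0 bp in the controls and 308 and 589 bp with VEGF (log2 difference 1.66, smallest adjusted p = 0.17). TNFAIP2 (1.27) and CXCL8 (1.05) overlapped, and CCL2 held 758 and 318 bp in the controls and 1093 and 951 bp with VEGF. SELE, VCAM1 and CX3CL1 were at 0 in the 4 libraries. Over all 9 lists, 16 of 137 windows had VEGF above and 25 had VEGF below both controls, together 29.9%, beside 25.6% of 50-kb bins.

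The bins called across the genome held little coverage and mostly went between 0 and short peaks. Each library of the covered group had exactly 1 peak in 48 of the 68 higher and 31 of the 40 lower bins. In all 68 higher bins both VEGF libraries lay above both controls, and in all 40 lower bins below. For this order alone the shares of tested bins were 10.3% and 12.3%. In 64 of the higher bins both controls were at 0, and in 37 of the lower bins both VEGF libraries were. Among all 36576 tested bins both controls were at 0 in 10204 and both VEGF libraries in 9823. The covered group had a median of 448 bp in higher and 422 bp in lower bins. None of the 8192 bins with a mean of 1000 bp or more in both groups was called. The log2 differences of bins at 0 in a group depend on the pseudocount of 200 bp, so they give an order and not a fold change.

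The called bins were also looked up in the Eahy926 libraries outside the comparison. Of the higher bins, 60 (88.2%) were covered in both day 0 controls, and of the lower bins 33 (82.5%), beside 74.6% of all tested bins. These shares are partly set by the filter, which asks for 500 bp in 2 or more of the 20 ChIP libraries. In 21 higher and 15 lower bins neither library of the covered group reached 500 bp, so other libraries carried the bin into the test, and 13 and 7 bins would not have passed without the day 0 controls, the deepest libraries of this line. Both TNFa libraries were covered in 45 higher and 29 lower bins (66.2% and 72.5%), beside 63.5% of all bins. Both IL1b libraries were covered in 17 and 15 (25% and 37.5%), beside 50.3%. In the other direction, 5 higher bins and 1 lower bin passed only through the group where they are high, since fewer than 2 other libraries reached 500 bp. Among the named bins these are PACS1, ASTN2, MAGI2, chr21:23230001-23240000 and CCSER2. No called bin held an input peak.

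Among the higher bins, the smallest adjusted p belonged to chr11:65840001-65850000 in PACS1, a cargo sorting protein of the trans-Golgi network. It held 909 and 1036 bp with VEGF and 0 in both controls (log2 difference 2.55 ± 0.17, SE, adjusted p = 8.7e-05 in limma). All 4 cytokine libraries were at 0 and the day 0 controls held 185 and 317 bp. All TeloHAEC libraries were at 0 too, and groups at 0 add no spread to the fit, which lowers the SE and p of this bin. It passed the filter only through the VEGF libraries, so its p and refits rest on the values that carried it into the test. The call was kept without each of the 4 libraries and at a pseudocount of 1000 bp, and it was lost with the lists as deposited, where control 1.2 has a shorter peak just under the threshold of q (adjusted p = 0.062), and with the compared groups alone (0.065). With the stricter threshold, equal numbers of peaks or equal covered length the bin did not pass the filter on low coverage and was not tested.

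The largest log2 difference was 2.83 ± 0.35 (SE, adjusted p = 0.0034 in limma) at chr22:32530001-32540000, which held 1303 and 1138 bp with VEGF. Its 2 day 0 controls and all 4 cytokine libraries were covered too, so the day 1 controls stood apart from the other Eahy926 libraries. The call was lost with equal numbers of top peaks (log2 difference 1.03), -log10 q of 5 or more (1.09), equal covered length (0.98) and controls of both days (1.60), and with a pseudocount of 1000 bp (adjusted p = 0.1) and the compared groups fitted alone (0.063). The bin chr7:100110001-100120000 upstream of AGFG2 held 1133 and 835 bp, and that in HPSE, which encodes heparanase, chr4:84240001-84250000, held 419 and 784 bp. A bin near the start of TIFA, an adaptor of NF-kB signalling, chr4:113210001-113220000, held 536 and 675 bp. Those in ASTN2 (chr9:119390001-119400000), RNGTT, the mRNA capping enzyme (chr6:89390001-89400000), and the scaffold MAGI2 (chr7:78410001-78420000) had log2 differences of 2.13, 2.01 and 1.97. In every one of these bins both controls were at 0. With controls of both days the calls near AGFG2 and TIFA and in RNGTT and HPSE were lost, and those in ASTN2 and MAGI2 were kept. Those near AGFG2 and in RNGTT and HPSE were also lost at -log10 q of 5 or more. The remaining named bins, chr6:103660001-103670000 and chr21:23230001-23240000, have no gene name here, and the second was at 0 in the cytokine libraries and at 414 and 367 bp in the day 0 controls. In the first the day 0 controls held 1437 and 1281 bp, above the VEGF libraries (530 and 675 bp). Both lost the call with controls of both days, and the first also at -log10 q of 5 or more and with equal numbers of top peaks. These last bins, that in PACS1 and that at chr22:32530001-32540000 stayed called with any 1 of the 4 libraries left out. The bins in ASTN2, RNGTT and MAGI2 and near TIFA lost the call whichever library was left out, that near AGFG2 kept it only without VEGF 1.2, and that in HPSE only without VEGF 1.1.

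Among the lower bins, chr3:58570001-58580000 in FAM107A held 522 and 717 bp in the controls and 0 with VEGF (fell by 2.02 ± 0.29, SE, adjusted p = 0.01 in limma). The smallest adjusted p, 0.00047, was at chr15:29210001-29220000 in APBA2, with 619 and 439 bp in the controls, 549 and 499.8 bp on day 0 and 0 in the VEGF and cytokine libraries. The bin chr10:102290001-102300000, which holds the start of HIF1AN, an oxygen-sensing hydroxylase that inhibits HIF1A, had 614 and 416 bp in the controls, and all other Eahy926 libraries except those with VEGF were covered. The bin chr10:105650001-105660000 in STN1, a telomere maintenance factor, held 571 and 780.2 bp against 88.1 and 0. Bins in the potassium channel KCND2 (chr7:120370001-120380000), in SPAG16 (chr2:214140001-214150000) and in CCSER2 (chr10:86160001-86170000) fell by 2.02, 1.95 and 1.86. In KCND2 the controls themselves were far apart, at 294 and 1129.7 bp. Unnamed bins were chr2:153090001-153100000, chr4:127700001-127710000 and chr5:96710001-96720000. The last pair and the APBA2 bin stayed called with any 1 library left out. With the compared groups fitted alone 20 of the 22 bins named in this comparison, those of NRP1 and NR4A1 included, lost the call, and only chr4:127700001-127710000 and CCSER2 kept it. FAM107A lost the call without control 1.2, KCND2 without either VEGF library, STN1 without control 1.2 or VEGF 1.2, and CCSER2 whichever of the 4 was left out. SPAG16 kept it only without control 1.1, and HIF1AN and chr2:153090001-153100000 only without control 1.2.

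Which bins are called depended on the list of peaks. When each library was limited to its 27425 peaks with the highest -log10 p, 107 of 29756 bins were called (0.36%), 58 higher and 49 lower, but only 2 of them were among the 108. At -log10 q of 5 or more 137 were called and 1 was shared, and with lists limited to an equal covered length 101 were called and 0 were shared. With the lists as deposited 60 of 105 were shared, and with the 4 libraries fitted alone 13 of 100. A pseudocount of 1000 bp left 5 bins, those in PACS1 and APBA2, chr21:23230001-23240000, chr5:96710001-96720000 and a bin in the sodium channel SCN8A that was named after its value was seen. Without VEGF 1.2 the split turned to 83 higher and 130 lower of 213. Without VEGF 1.1, control 1.1 and control 1.2 the calls numbered 173, 233 and 214.

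Single regions were then followed by the presence of a peak, with no test. Peaks of all 20 ChIP libraries were merged into 86917 regions. Of the 40516 with a peak in any of the 4 compared libraries, 21963 had one in all 4, 929 (2.29%) were gained, with a peak in both VEGF libraries and neither control, and 659 (1.63%) were lost. An equal number of top peaks gave 681 and 632, so the excess of gains was smaller there, and an equal covered length gave more lost (588) than gained regions (437). Gained and lost peaks were short, with a median of 323 and 318 bp against 536 bp in regions covered in all 4. Both day 0 controls had a peak in 555 gained and 395 lost regions (59.7% and 59.9%), beside 76.6% of all regions with a peak in any of the 4. There were 66 gained and 66 lost regions with no peak in any other Eahy926 ChIP library (7.1% and 10%), beside 8.3% of all.

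**Figure D3:**
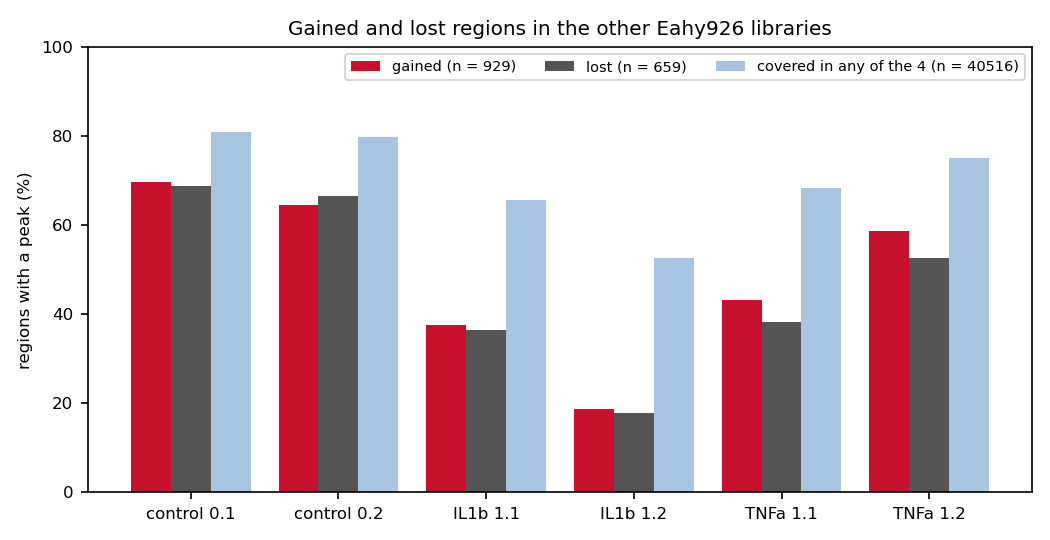
Share of regions with a peak (y axis, %) in the 6 Eahy926 ChIP libraries that did not define the sets (x axis), for gained, lost and all regions with a peak in any of the 4 compared libraries. Gained and lost regions have similar shares in each library, for example 69.6% and 68.9% in day 0 control 0.1, and both lie below all regions.

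Several of the widest regions lie at or near gene starts. On the gained side, chr5:162930947-162932947 begins 827 bp inside MAT2B, the regulatory subunit of methionine adenosyltransferase whose upstream sequence is printed above, with 1186 and 690 bp under peaks in VEGF 1.1 and 1.2. Within 1 kb of the MAT2B start VEGF 1.1 held 174 unscaled bp and VEGF 1.2 and both controls held 0, so these peaks lie mostly further inside the gene. The region chr3:50264149-50264873 lies 425 bp inside GNAI2, an inhibitory G protein subunit, with 604 and 673 bp, and chr1:33722496-33723353 lies 322 bp inside ZNF362. Gains inside genes were in GSS, glutathione synthetase (chr20:33528659-33529765), PACS1 (chr11:65848206-65849224), the pyruvate kinase PKM (chr15:72519901-72520781) and TMEFF2 (chr2:192814812-192815783). The regions in GSS and PKM had no peak in either day 0 control, and the other 8 named gains had one in both. In the MAT2B, GNAI2 and PACS1 regions and in chr22:32533375-32534657 and chr7:100112215-100113341 a control library holds a deposited peak under the q threshold. Further gains were chr22:32533375-32534657, chr7:100112215-100113341 and chr1:178024088-178025221.

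On the lost side, chr2:55746125-55747218 covers the start of CFAP36, a cilia and flagella associated protein, with 632 and 718 bp in the controls. Within 1 kb of that start the day 0 controls held 1223 and 1236 unscaled bp, the TNFa libraries 587 and 526 bp, and the VEGF and IL1b libraries 0. The widest loss, chr13:99739075-99739844, lies 196 bp from the start of DOCK9, an exchange factor for CDC42, with 652 and 655 bp. Losses inside genes were in WLS, the Wnt secretion carrier (chr1:68578099-68578809), TMEM242 (chr6:157737339-157738756), LPAR6, a lysophosphatidic acid receptor gene that lies inside RB1 (chr13:48986427-48987144), MYO16 (chr13:109798811-109799652) and EZR, which links actin to the membrane (chr6:159205950-159206632). The remaining losses were chr7:22629065-22630080, chr3:81500199-81500984 and chr4:127699860-127700510. In the regions at DOCK9, TMEM242, MYO16 and chr3:81500199-81500984 a VEGF library holds a deposited peak under the q threshold. All 10 except those on chromosome 3 and in WLS had a peak in both day 0 controls.

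VEGF presence was next averaged over both lines, with VEGF added to Eahy926 and VEGF kept in TeloHAEC. Of the tested bins, 302 (0.826%) were called, 147 higher (0.402%) and 155 lower (0.424%). Which bins were called depended on the list of peaks here too. With equal numbers of top peaks 18 of 276 calls were among the 302. At -log10 q of 5 or more 5 of 299 were, and with an equal covered length 3 of 153. In chr3:128520001-128530000, inside RAB7A, a late endosome GTPase, Eahy926 held 0 and 0 bp in the controls and 423 and 389 bp with VEGF, and TeloHAEC held 597 and 689.7 bp with VEGF and 0 without it (mean log2 difference 1.84 ± 0.16, SE, adjusted p = 0.00099 in limma). The Eahy926 day 0 controls held 618 and 742 bp there, above the VEGF libraries, and the TNFa libraries 414 and 263 bp. The IL1b libraries were at 0. The RAB7A call was lost at -log10 q of 5 or more. In chr11:71150001-71160000, which holds the start of DHCR7, the last enzyme of cholesterol synthesis, Eahy926 held 371 and 250 bp in the controls and 0 and 0 bp with VEGF, and TeloHAEC 567 and 562 bp without VEGF and 0 with it (adjusted p = 0.01). The TeloHAEC day 0 controls, whose medium holds VEGF, were covered there at 463 and 376 bp, and the Eahy926 cytokine libraries were at 0. Other higher bins lay in IQSEC1 (1.99), FBN1, which encodes fibrillin 1 (1.79), SPECC1L (1.77) and chr21:39610001-39620000 (1.80). In SPECC1L only VEGF 1.2 of the Eahy926 libraries was covered. FBN1 and SPECC1L lost the call in 5 of 8 fits with a library left out, those without either Eahy926 control, VEGF 1.2 or replicate 1 of either TeloHAEC group. IQSEC1 lost it without VEGF 1.2. Other lower bins lay in DDX10 (-1.70) and DUSP18 (-1.68), and at chr17:33460001-33470000 (-2.09) and chr3:171550001-171560000 (-2.09). The TeloHAEC day 0 controls were covered in each of these too. They held 906 and 714 bp in DDX10, 749 and 588 bp in DUSP18, 444 and 381 bp on chromosome 17 and 494 and 691 bp on chromosome 3. DDX10 lost the call without Eahy926 control 1.2, and chr3:171550001-171560000 without that library or either VEGF library. Of the 10 named bins, Eahy926 on its own was called in RAB7A, chr21:39610001-39620000 and chr17:33460001-33470000. The TeloHAEC libraries were uneven, as replicate 1 covered 13 and 13.9 Mb and replicate 2 22.5 and 23.2 Mb. Without TeloHAEC control 1.2 the calls numbered 2462, and without its VEGF-free library 1.2 1616. Without TeloHAEC control 1.1 and its VEGF-free library 1.1 they numbered 585 and 499.

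The VEGF effect differed between the lines in 310 bins (0.848%), 171 (0.468%) with the more positive effect in Eahy926 and 139 (0.38%) with the more positive effect in TeloHAEC. Few of these were called with other lists of peaks. With equal numbers of top peaks 22 of 278 calls were among the 310. At -log10 q of 5 or more 9 of 306 were, and with an equal covered length 5 of 157. The largest difference was at chr1:43420001-43430000, which holds the start of SLC2A1, the glucose transporter GLUT1. Eahy926 held 486 and 765 bp in the controls and 0 and 0 bp with VEGF, and 597 and 1069 bp with VEGF and 0 and 0 bp without it in TeloHAEC. The effects differed by -4.35 ± 0.66 (SE) on the log2 scale (adjusted p = 0.0081 in limma). Both Eahy926 IL1b libraries were at 0 in this bin and the TNFa libraries held 0 and 585 bp. The TeloHAEC effect was called on its own (0.024) and the Eahy926 effect was not (0.2), and the difference was not called at -log10 q of 5 or more or with equal numbers of top peaks or equal covered length. The bin chr16:19530001-19540000, which holds the start of GDE1, a glycerophosphodiesterase, was the reverse, at 0 and 0 bp in the controls and 412 and 391 bp with VEGF, and 0 and 0 bp with VEGF and 754 and 753 bp without it in TeloHAEC (3.84 ± 0.41, adjusted p = 0.0021), and this bin was called in both lines on their own (Eahy926 0.047, TeloHAEC 0.001). It was not called at -log10 q of 5 or more or with equal numbers of top peaks. Outside this comparison the GDE1 bin was covered in the day 0 controls of both lines. These held 797 and 712 bp in Eahy926 and 714 and 649 bp in TeloHAEC, whose medium holds VEGF. The Eahy926 IL1b libraries held 466 and 1018 bp and the TNFa libraries 553 and 310 bp, so coverage did not follow VEGF across all libraries. In RNASE1, a ribonuclease that endothelial cells secrete, chr14:21270001-21280000 held 0 and 0 bp in the controls and 389 and 302 bp with VEGF, and 0 and 0 bp with VEGF and 778 and 339.7 bp without it in TeloHAEC. Neither line's own effect was called there (adjusted p = 0.55 in Eahy926 and 0.067 in TeloHAEC), and the difference lost its call in 6 of 8 fits with a library left out, those without each of the 4 Eahy926 libraries or without replicate 1 of either TeloHAEC group. Without TeloHAEC control 1.2 the calls numbered 2567, and without its VEGF-free library 1.2 1584. Without TeloHAEC control 1.1 and its VEGF-free library 1.1 they numbered 595 and 545.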

How the data were processed

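H3K27ac ChIP-seq peak lists of 24 libraries were used, 1 file each. Reads were aligned to hg19 with Bowtie2, per the submitters' processing notes. Peaks were called with MACS 2.1.1.20160309 on each library alone without an input control, at p 0.001 with summit calling, 1 tag per position and a regional background of 10000 bp, per the file headers. The deposited pileup is a signal of stacked fragments not scaled for depth, and the deposited −log10 p and −log10 q values come from the authors' peak caller. The deposited fold enrichment is a ratio to the library's own background. The headers state that q was not calculated, yet the column holds values. None of these per-peak values was compared between libraries. Depth was 3843129 to 21135399 tags per ChIP library.

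Autosomal peaks with −log10 q of 2 or more were summed per 10-kb bin, scaled to the mean total length, and tested as log2(bp + 200) with limma 3.58.1 in R 4.3.3, as 10 group means over 20 ChIP libraries with 10 residual degrees of freedom and Benjamini-Hochberg adjustment, in bins that reached 500 bp in 2 or more libraries. All groups share 1 estimate of spread. Groups at 0 in both libraries add none to it but count in its degrees of freedom. SE and p values are therefore smaller in bins at 0 in most groups, such as those in PACS1 and APBA2. The fit was tested on simulated data with normal noise in every library and without scaling or filter. No group was at 0 throughout there, so that test does not show how the fit behaves in bins at 0 in a group. Members, lists and rules were chosen with earlier results of these data known. Named bins are the 10 called per direction with the largest difference whose groups do not overlap (5 for comparisons over lines), and the 10 widest gained and lost regions, where width is the smaller of both libraries' peak lengths, a definition set after the files were seen.

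No hg19 annotation was at hand, so a test over all gene windows was not run. Gene spans were written from general knowledge of hg19 and kept where chromosome and length (within 10% or 10 kb) matched the RefSeq table of another build, with 0 order breaks. 227 of 239 passed for windows. Names of bins and regions were looked up after these were known, the FAM107A span was revised after the length check, and bins with no accepted gene are given by position. Exons and introns were not assigned. PECAM1 and PROCR failed the check and were not used. Figures used matplotlib 3.10.9 in python 3.11.15.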

Additional observations from a re-analysis of the deposited data

Results flagged for a closer look

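For 10 bins the test of the difference itself put the VEGF effect of Eahy926 apart from that of TeloHAEC, and these are the 5 with the largest difference in each direction. The SLC2A1 bin (-4.35) and the GDE1 bin (3.84) are described in the report with the RNASE1 bin (3.30). The bin in CMIP, chr16:81740001-81750000 (-4.23), was covered in Eahy926 controls (322 and 524 bp) and at 0 with VEGF, and held 1238 and 839.6 bp with VEGF and 0 and 0 bp without it in TeloHAEC. RYBP, a Polycomb component, had the same order at chr3:72490001-72500000 (-3.40), with 299.8 and 475 bp in Eahy926 controls and 0 with VEGF. In SGMS1, sphingomyelin synthase 1 (chr10:52340001-52350000, -2.84), and at chr15:91220001-91230000 (-2.84) all Eahy926 libraries were covered and the TeloHAEC libraries without VEGF were at 0. The bins with the more positive effect in Eahy926 were in ARHGAP18 (chr6:129970001-129980000, 3.33), at the start of the DNA glycosylase NEIL3 (chr4:178230001-178240000, 3.23) and in CHIC2 (chr4:54910001-54920000, 3.22). For VEGF against control within Eahy926 only the GDE1 bin of these 10 was called. The differences in CMIP and at chr15:91220001-91230000 were not called at -log10 q of 5 or more, with equal numbers of top peaks or with an equal covered length. With equal numbers of top peaks those in RYBP, NEIL3 and SGMS1 were not called, nor was that in SGMS1 at -log10 q of 5 or more. The difference was not called without VEGF 1.1 in NEIL3, and without control 1.1 or VEGF 1.2 of Eahy926 in SGMS1. NEIL3 held 326 and 0 bp in the controls and 807 and 807 bp with VEGF, and 0 and 0 bp with VEGF and 476 and 339.7 bp without it in TeloHAEC. On day 1 the ARHGAP18 and CHIC2 bins were at 0 in the Eahy926 controls and in TeloHAEC with VEGF. The Eahy926 day 0 controls, however, held 927 and 629 bp in ARHGAP18 and 211 and 286 bp in CHIC2. TeloHAEC day 0 controls, whose medium holds VEGF, were at 0 in ARHGAP18 and held 632 and 512 bp in CHIC2.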

How the results depend on the processing

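Of 108 bins called between VEGF and control, the count moved to 241 with no filter, 58 with no scaling, 5 at a pseudocount of 1000 bp, 53 with controls of both days (12 higher, 41 lower), 38 with 50-kb bins, and 173 to 233 when each compared library was left out, where the lone library is assumed to vary like the other groups. An equal covered length gave 46 higher and 55 lower. For VEGF presence over both lines the count of 302 moved to 153 with an equal covered length, 487 with no filter and 275 to 2462 with a library left out. For the difference between lines 310 moved to 157, 496 and 262 to 2567 in the same settings. Gained regions (929) moved to 437 with an equal covered length, 237 with controls of both days and 2267 to 3999 with a library left out, since presence in 1 library then suffices. Lost regions (659) moved to 426 at −log10 q of 5 or more, 395 with controls of both days and 1395 to 2627 with a library left out. The cause was not tested for the other changes. The 22 named bins of the VEGF comparison kept direction and call in 155 and lost the call in 118 of their refits in other settings, and in 46 and 42 of those with a library left out. One named difference turned direction, that at chr15:91220001-91230000, at 1.15 and 0.18 under a −log10 q of 5 or more and an equal covered length. With the replicate number as a replicate block 92 bins were called between VEGF and control, 276 over both lines and 294 for the difference. The deviations of same-numbered VEGF and control libraries had a correlation of 0.052 across bins, so the numbers were not taken to pair the libraries. Gene windows over all genes were not run for want of an hg19 annotation. At the depth of the compared libraries, short peaks lie near the threshold for calling, and a bin at 0 is one without a called peak, not without H3K27ac.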

Other observations

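Other called bins that lie in genes recalled after the bins were known are given here as values, chosen after these were seen, with limma's adjusted p. In SCN8A, a voltage-gated sodium channel, coverage was 0 in both controls and 467 and 643 bp with VEGF (log2 difference 1.91, adjusted p = 0.00047). EVL, an actin regulator of the Ena/VASP family, held 588 and 408 bp with VEGF (log2 difference 1.79, adjusted p = 0.0021), CASKIN2 held 390.4 and 635 bp (log2 difference 1.81, adjusted p = 0.0021), and the actin-binding protein LSP1 held 315 and 327 bp (log2 difference 1.38, adjusted p = 0.0014). In IGF2BP1, an mRNA-binding protein, the controls held 313 and 749 bp and the bin fell with VEGF (log2 difference -1.80, adjusted p = 0.0046). A bin 10565 bp from the start of GNG12, a G protein gamma subunit, had 443 and 394 bp in the controls (log2 difference -1.63, adjusted p = 0.0076). Both Eahy926 day 0 controls were covered in all of these bins. They held 642 and 751 bp in SCN8A, 436 and 729 bp in EVL, 388 and 632 bp in CASKIN2 and 490 and 378 bp in LSP1. In the lower bins they held 721 and 735 bp (IGF2BP1) and 208 and 278 bp (GNG12). The SCN8A bin would not have passed the filter without them.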
